A study of Bos taurus with 6 samples.

Results

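The bovine major histocompatibility complex, called BoLA, was examined as the stretch of chromosome 23 from 25000000 to 30000000 of the genome build UMD3.1. Its members were chosen by position alone: every cytosine of a CpG in that stretch with at least 10 methylation calls in a library, and every 1000 bp grid window in which at least 2 Creole and 2 Spanish libraries each had 3 or more covered cytosines and 10 or more calls. The interval held 7422 such cytosines over all libraries, of 2818800 on all chromosomes, and 138 such windows, of 60386. The rest of chromosome 23, with 74513 cytosines and 1592 windows, served for comparison.

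The major histocompatibility complex holds the genes whose products show peptides to T cells. Class I molecules are displayed by nearly all nucleated cells and present peptides made inside the cell, class II molecules are displayed mainly by B cells, dendritic cells and macrophages and present peptides taken up from outside, and the class III genes between them include complement factors and cytokines of the tumour necrosis factor family. In cattle the class II genes lie in 2 clusters on chromosome 23, of which class IIa is next to class III and class I and class IIb is set apart. RefSeq genes were used for names and order only, from ARS-UCD2.0. In that order the class IIb genes BOLA-DYA, BOLA-DOB and BOLA-DMA came first. After GUCA1A followed class IIa (BOLA-DQA2, BOLA-DRB3, BOLA-DRA), then class III genes (NOTCH4, C4A, CFB, EHMT2, HSPA1A, TNF, LTA), then class I (BOLA-NC1, BOLA), the receptor gene GABBR1, olfactory receptor genes such as OR2H1, and histone genes such as H1-5. The list held 178 genes from BOLA-DQA2 to GABBR1, of which 133 were protein coding. That the interval holds the class IIa and class I genes rests on the UMD3.1 positions in the rule. No UMD3.1 annotation or sequence was used here, so no window was assigned to a BoLA gene.

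Blood DNA came from 6 adult male cattle, 1 library each. Among the Creole animals, Creole 1 was a Sanmartinero, while Creole 2 and Creole 3 were both of the breed Costeno con Cuernos. Among the Spanish animals, Spanish 1 was a Retinta, Spanish 2 an Asturiana de los Valles and Spanish 3 of the Lidia breed. Reduced representation bisulfite sequencing reads the DNA between nearby CCGG sites cut by MspI, and in it an unmethylated cytosine reads as thymine, so the methylation level of a cytosine is the percent of its calls that stayed cytosine. Creole DNA was extracted with the UltraClean BloodSpin kit and Spanish DNA with the QIAamp kit, and the names of the deposited files carry another lane mark for each group, so kit, lane mark and group cannot be told apart. With 1 animal per breed in all breeds but 1, breed and animal cannot be told apart either. Whole blood is a mixture of leukocytes: a change in their proportions and a change in methylation per cell cannot be told apart, and the cell makeup was not measured.

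Total calls on the chromosomes ranged from 39821358 to 84537374 per library, and calls in the interval from 72725 in Spanish 1 to 140867 in Creole 1. Interval cytosines with at least 10 calls numbered 4421, 1300 and 804 in Creole 1, 2 and 3, and 1512, 2560 and 1426 in Spanish 1, 2 and 3. Creole 1 thus had the most such cytosines and Creole 3 the fewest, although Creole 3 had 97057 calls in the interval, more than each Spanish library, and the highest median depth at these cytosines, 73 calls. Of the 7422 interval cytosines, 4433 (59.7%) reached 10 calls in 1 library only and 13 (0.175%) in all 6. On the rest of the chromosome these shares were 56.4% and 0.264%.

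The interval was less methylated than the rest of chromosome 23 in every animal. Mean methylation of its cytosines was 38.1%, 38.6% and 30.1% in Creole 1, 2 and 3, and 36.7%, 36.0% and 37.1% in Spanish 1, 2 and 3. On the rest of the chromosome the Creole libraries read 56.4%, 55.7% and 58.9% and the Spanish ones 53.3%, 55.2% and 53.5%. All 6 interval levels lay below all 6 levels of the rest of the chromosome. The mean was 36.1% ± 3.09 (SD, n = 6) inside and 55.5% ± 2.06 (SD, n = 6) outside, a difference of -19.4 points ± 4.75 (SD), lower in 6 of 6 libraries (exact sign-flip permutation test over the 6 libraries, two-sided, p = 0.031, the smallest that 6 libraries allow). Adjusted over the 5 measures compared in this way, p was 0.0521, which did not pass 0.05.

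The lower mean came with more cytosines near 0 and fewer near 100%. Cytosines under 20% made up 62.0% ± 4.21 (SD, n = 6) of those in the interval and 42.1% ± 3.33 of those outside it. Cytosines over 80% made up 34.1% ± 2.96 inside and 53.1% ± 2.94 outside. Both shares differed in 1 direction in 6 of 6 libraries (exact permutation p = 0.031 each, adjusted p = 0.0521 each). Cytosines from 20% to 80% were a small class on both sides, with 3.98% ± 3.47 inside and 4.77% ± 4.75 outside (SD, n = 6, exact permutation p = 0.1875, adjusted p = 0.1875). Creole 1 held most of that class, with 10.9% of its interval cytosines, while the other 5 libraries had 1.62% to 3.28%.

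**Figure D1:**
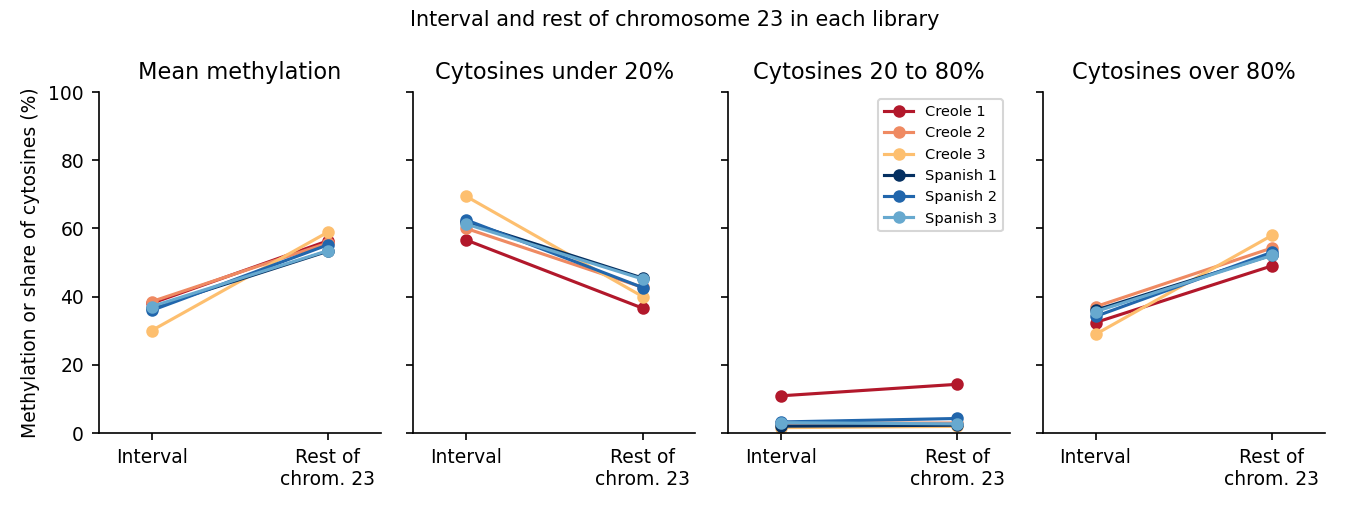
Each line joins the interval (left) and the rest of chromosome 23 (right) in 1 library, for mean methylation and for the share of cytosines under 20%, from 20% to 80% and over 80%, all in percent on a common axis. The 6 interval means sit between 30.1% and 38.6%, below the 6 means of the rest of the chromosome, and the intermediate class is small in all libraries but Creole 1.

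Values of exactly 0 or exactly 100% dominated the interval. They made up 74.3% of interval cytosines with at least 10 calls in Creole 1, and 92.7%, 93.8%, 95.2%, 94.2% and 93.5% in Creole 2, Creole 3, Spanish 1, Spanish 2 and Spanish 3. The rest of the chromosome gave 71.8% in Creole 1 and 91.8% to 94.1% in the other libraries. Among neighbouring interval cytosines within 50 bp of each other, 52.8% had the same number of calls in Creole 1 and 69.2% to 82.6% in the others. The libraries were amplified by PCR and carry no molecular identifiers, so calls cannot be counted as separate molecules, and how many DNA molecules stand behind a value was not measured.

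The density of covered cytosines differed little. The interval held 161 to 884 cytosines with at least 10 calls per Mb and library, the rest of the chromosome 198 to 895, and the log2 ratio of interval to rest was -0.15 ± 0.16 (SD, n = 6, lower in 5 of 6 libraries, exact permutation p = 0.09375, adjusted p = 0.117).

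CpG islands are known to be mostly unmethylated, and methylation here also varied with how densely CpGs were covered. Covered CpGs are not all CpGs of the sequence, which was not used. The cytosines were divided, after the data were seen, by the number of covered CpGs within 100 bp, that of the cytosine itself included. A CpG counted once for both strands and was taken as covered if any library had calls there. With 1 to 4 such CpGs the interval read 56.5% ± 2.76 and the rest of the chromosome 62.9% ± 2.64 (SD, n = 6). With 5 to 9 the levels were 49.1% ± 6.71 and 66.3% ± 1.41, and with 10 to 14 they were 26.4% ± 5.43 and 54.7% ± 2.39. With 15 or more they were 16.8% ± 6.78 and 30.3% ± 4.54. The interval was lower in 6 of 6 libraries in each of the 4 classes (exact permutation p = 0.031 and adjusted p = 0.031 in each). The gap was -28.3 points ± 6.5 (SD, n = 6) at 10 to 14 covered CpGs and -6.35 points ± 4.56 at 1 to 4. The densest class held 25.9% of the interval's cytosines on average and 20.1% of the others.

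**Figure D2:**
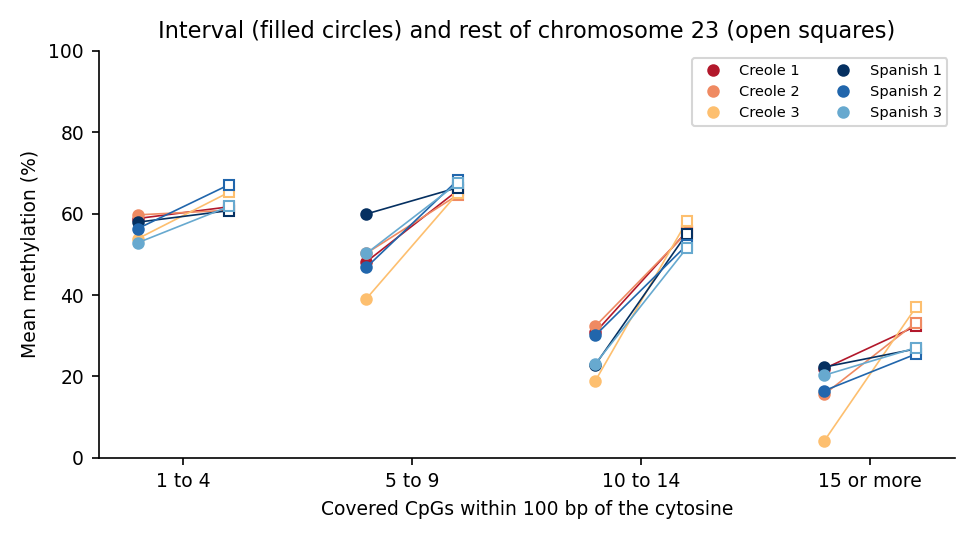
Mean methylation in percent is plotted by the number of covered CpGs within 100 bp, with filled circles for the interval, open squares for the rest of chromosome 23 and a line for each library. In every class and library the circle lies below its square, by 28.3 points on average at 10 to 14 covered CpGs.

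The low level was not evenly spread over the interval. In steps of 1 Mb from its lower edge, the mean over libraries was 42.5% ± 13.6, 54.1% ± 19.3, 37.2% ± 4.51, 33.9% ± 5.18 and 22.2% ± 8.17 (SD, n = 6). The second step was thinly covered, with 27 to 116 cytosines per library, and ranged from 29.3% in Spanish 1 to 80.1% in Creole 3. The third step, from 27000001 to 28000000, held 464 to 2424 cytosines per library and 83 of the 138 windows, so values over the whole interval rest mainly on it. Creole 3 had the lowest level of the 6 libraries in the third and the fourth step, at 28.8% and 24.4%, and the second highest in the last, at 30%. The last step ranked 2 from the bottom among the 53 steps of the chromosome, the fourth 7 and the third 9. The last step was also thinly covered, with 40 to 240 cytosines per library. From 29000001 to 29500000 there were 2 to 27 per library, at 51.6% ± 29.3 (SD, n = 6). From 29500001 to 30000000 there were 37 to 213, at 18.6% ± 7.20, so the rank rests mainly on that part.

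The stretch of low methylation did not end at the upper edge of the interval. The next step, from 30000001 to 31000000, was the lowest of the 53, at 16.3% ± 4.66 (SD, n = 6), and the 3 Mb above the edge read 22.2% ± 3.25. Over the 5 Mb above the interval the mean was 24.6% ± 3.82, and the interval was higher than that in 6 of 6 libraries, by 11.5 points ± 5.36 (exact permutation p = 0.031). Over the 5 Mb below it the mean was 49.5% ± 1.09, and the interval was lower in 6 of 6 libraries, by -13.4 points ± 3.64 (exact permutation p = 0.031). Against both flanks together the interval differed by 1.64 points (exact permutation p = 0.375), less than the spread between libraries. Among 11 blocks of 5 Mb on chromosome 23 (the last one shorter), the interval ranked 2 from the bottom, after the block that follows it. The blocks from 45000001 to 50000000 and from 50000001 to the end read 64.5% and 67.9%, the highest. They also held the most cytosines, 22605 and 26316 summed over libraries, so they weigh most in the mean of the rest of the chromosome.

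**Figure D3:**
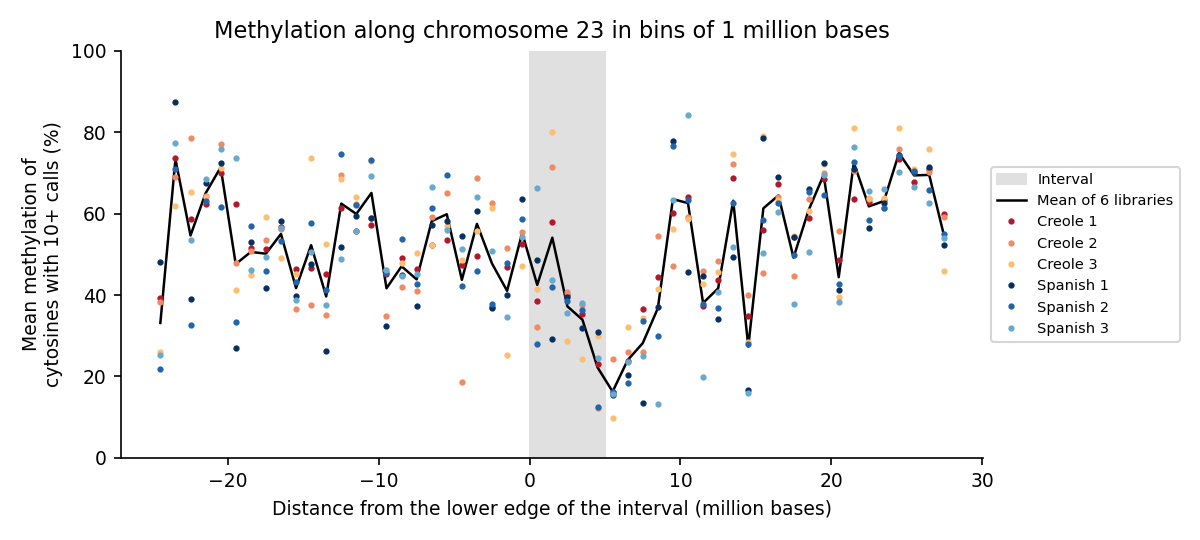
Mean methylation in percent of cytosines with at least 10 calls is plotted in bins of 1 Mb along chromosome 23, against the distance in Mb from the lower edge of the interval (shaded). Points are libraries and the line is their mean, which is 54.1% in the second bin of the interval and falls from there to 16.3% in the first bin above it.

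Group means of the interval were close. Creole animals averaged 35.6% ± 4.77 and Spanish animals 36.6% ± 0.586 (SD, n = 3 each), a difference of -1.05 points (exact permutation test over the 10 splits, two-sided, p = 1.0, smallest possible 0.10). The wider Creole spread came from Creole 3, and without it Creole lay 1.70 points above Spanish (exact permutation p = 0.1, the smallest possible). The gap between the interval and the rest of the chromosome was -21.5 points ± 6.44 in Creole and -17.4 ± 1.60 in Spanish animals (SD, n = 3 each, exact permutation p = 0.5). It was -28.9 points in Creole 3 and between -16.4 and -19.3 in the other 5 libraries.

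The windows were then divided by their level. Of the 138 interval windows, 58 (42.0%) had a mean under 20% over the libraries that measured them, 52 (37.7%) lay between 20% and 80%, and 28 (20.3%) were over 80%. On the rest of chromosome 23 the shares were 20.7%, 44.0% and 35.2%. In 46 interval windows (33.3%) every measuring library was under 20%, against 15.3% on the rest of the chromosome, and in 10 (7.25%) every one was over 80%, against 13.9%. Windows are no replicates, and no test was made on these shares.

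Of the 40 interval windows measured in all 6 libraries, 17 were under 20% in every animal and 0 were over 80% in every animal. The lowest 3 lay at 25241001 to 25242000, at 27003001 to 27004000 and at 29936001 to 29937000. In the first, the libraries read 0.318%, 0.0%, 0.0%, 0.0%, 0.225% and 0.0% in the order Creole 1 to 3 and Spanish 1 to 3, from 63 to 4082 calls each. The second and the third read 0.418% and 0.407% in Creole 1 and 0.0% in the other 5 libraries. All 6 animals thus read 0.418% or less in all 3 windows, at the cytosines that their libraries covered. In each window, 0 cytosines were covered in all 6 libraries. The 3 windows lie near the lower edge, the middle and the upper edge of the interval.

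The highest 3 of the 40 windows lay at 27209001 to 27210000, 27286001 to 27287000 and 28571001 to 28572000, with means over the libraries of 85.5% ± 11.1, 86.3% ± 14.9 and 85.8% ± 9.49 (SD, n = 6). In the first, Creole animals read 83.7%, 66.6% and 92.2% and Spanish animals 99.8%, 87.6% and 83.2%. In the second, Creole 3 read 57.1% from 21 calls and the other 5 libraries 88.3% to 100%. In the third, Creole animals read 88.8%, 87.5% and 99.7% and Spanish animals 88.4%, 77.8% and 72.7%. Groups overlapped in all 3.

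The 3 windows nearest to 50% did not read near 50% in every animal. At 28745001 to 28746000, with 6 cytosines, Creole animals read 40.8%, 27.8% and 66.7% and Spanish animals 67.5%, 65.3% and 66.7%. At 28600001 to 28601000 the Creole animals read 68.3%, 60.2% and 1.83% and the Spanish animals 31.6%, 31.0% and 67.1%. Animals within each group differed, while the group means were 43.4% and 43.3%. At 26989001 to 26990000 they read 60.5%, 52.8% and 20.8% against 61.8%, 58.6% and 89.2%.

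The windows at 26989001 and 28600001 were also among the 5 with the largest spread over the 6 animals, 21.9 and 26.4 (SD, n = 6). The widest, 34.7 (SD, n = 6), was at 27842001 to 27843000, where Creole animals read 21.6%, 0.0315% and 0.0% and Spanish animals 88.9%, 0.0% and 31.9%. Spanish 1 there rested on 153 calls and Creole 2 on 6340. Spreads were 24.7 at 27037001 to 27038000, where Creole animals read 50%, 4.84% and 65.8% and Spanish animals 35.6%, 31.8% and 2.94%, and 24.9 at 28775001 to 28776000. The last read 2.70%, 9.63% and 5.43% in Creole and 33.3%, 66.7% and 8.33% in Spanish animals. The Spanish values there came from 18, 33 and 24 calls over 3 cytosines each, beside 2191 calls in Creole 3. The groups overlapped in all 5. Cytosines covered in all 6 libraries numbered 0 at 27842001, 27037001 and 26989001, 1 of 67 at 28600001 and 3 of 17 at 28775001. Differences between animals and between the cytosines read cannot be told apart there.

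**Figure D4:**
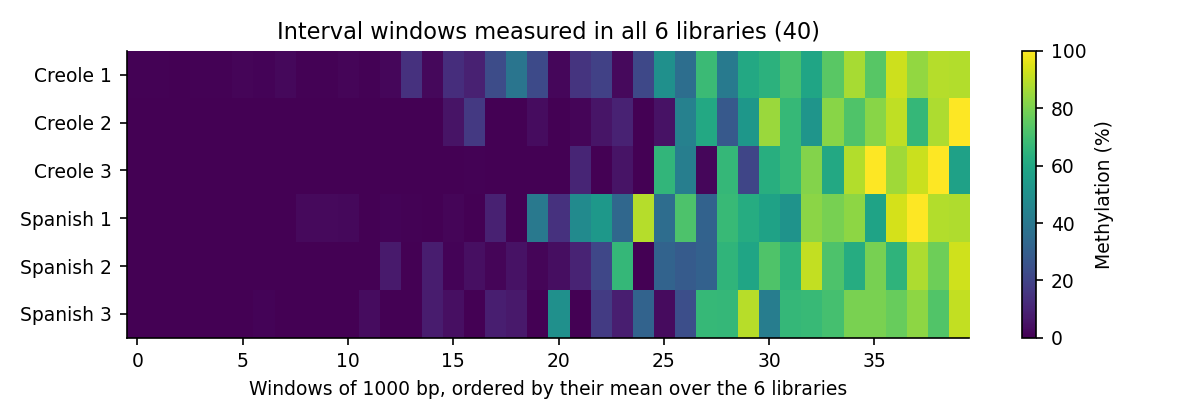
Each column is 1 of the 40 interval windows measured in all 6 libraries, ordered by its mean, each row is a library, and the colour gives methylation from 0 to 100%. The left part is dark in every row, 17 windows being under 20% in all 6 animals. Single bright or dark cells mark libraries that depart from the others, and libraries may have read different cytosines of a window.

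The spread between animals was also compared. The median SD of a window was 5.81 points among Creole and 5.05 among Spanish libraries, against 7.42 and 6.97 on the rest of chromosome 23. At cytosines with at least 10 calls in both libraries of a pair, the mean absolute difference between 2 animals was 6.23 to 16.9 points in the interval over the 15 pairs (median 12.9), and 13.7 to 18.2 points outside it (median 15.8). It was smaller in the interval in 14 of the 15 pairs. At these cytosines both libraries were under 20% in 49.6% to 75.1% of cases in the interval, against 28.4% to 38.4% outside. Both were over 80% in 17.1% to 36.7% of cases in the interval, against 40.4% to 45.9% outside. Spread was not compared at equal methylation levels, so whether animals differed less in the interval at a given level was not tested. Median differences in the interval were 11.3 points for the 6 pairs within a group and 13.9 for the 9 pairs between groups, and their ranges overlapped, 10.7 to 14.5 against 6.23 to 16.9. Pairs share animals and are given as a description. In 7 windows (5.07%) 1 library read under 20% and another over 80%, against 4.40% on the rest of the chromosome.

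The 13 cytosines with at least 10 calls in all 6 libraries lay at 2 places. Of these, 12 lay within 135 bp, from 27779500 to 27779634, with 11 to 181 calls per library. They read 0.0% in every library but for 6 values between 0.565% and 18.2%, and the highest, 18.2% in Spanish 2, was taken from 11 calls. The remaining cytosine, at 28950189, split the animals within both groups. It read 84.8% in Creole 1, 0.0% in Creole 2 and 98.1% in Creole 3, and 100% in Spanish 1, 0.0% in Spanish 2 and 71.7% in Spanish 3, from 27 to 321 calls. Its 2 animals at 0.0% belong to different groups. A thymine in an animal's own sequence would read like an unmethylated cytosine. Genotypes were not used, so whether the animals differ in sequence at this cytosine was not tested.

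Creole and Spanish animals were compared in each window with edgeR's quasi-likelihood test, fitted on the windows of all chromosomes, which treats each animal as 1 replicate. No interval window passed an adjusted p of 0.05, 0 of 138, where over all chromosomes 0.0% of windows were called. At an unadjusted p under 0.05 there were 2 interval windows, 1.45%, below the 3.84% of all windows. limma called 0 interval windows of 138 (0.0% of all windows) and had 8 at an unadjusted p under 0.05, beside 5.35% of all windows. edgeR's likelihood ratio test, which is less strict with few animals, called 1 interval window (2.07% of all windows). Pooling the reads of a group, which leaves out the variance between animals, called 85 interval windows, beside 66.1% of all windows. The Creole mean was higher in 69 interval windows, the Spanish mean in 66, and the median difference was 0.016 points.

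The 2 windows with an unadjusted p under 0.05 differed in direction. At 27807001 to 27808000, Creole animals read 68.0%, 26.3% and 25%, and Spanish 1 and Spanish 3 both 100%. The groups did not overlap, and the difference was -60.2 points (SE 14.1, unadjusted p = 0.00973, adjusted p = 1.0 by edgeR's quasi-likelihood test). This is the window that the likelihood ratio test called (adjusted p = 0.00209). Calls were 97, 1107 and 12 in Creole and 51 and 27 in the Spanish libraries, and of the 24 cytosines covered there 7 were covered in both groups.

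At 27135001 to 27136000, Creole 1 read 53.7% and Creole 2 56.0%, against 7.14% in Spanish 2 and 14.3% in Spanish 3. The difference was 44.1 points (SE 3.79, unadjusted p = 0.0256, adjusted p = 1.0, edgeR's quasi-likelihood test). Of the 132 cytosines covered in that window, 0 were covered in both groups, so the values of the groups come from different cytosines.

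The authors' deposited table lists 1 region in the interval, of 12 on chromosome 23 and 334 in all. It lies at 27134436 to 27134525, 90 bp with 8 CpGs, just below the window described last, in the core of a CpG island that the authors' deposited table gives as 27134244 to 27135908. The authors' deposited table assigns it to the gene ENSBTAG00000006864, which lies at 27152083 to 27165021 and whose identifier matched no gene of the RefSeq list, and gives a mean of 66% in Spanish and 15% in Creole animals. Recomputed from the calls, Creole 1 read 7.06% (95% Wilson interval 4.51 to 10.9%, 255 calls), Spanish 1 read 62.5% (55.2 to 69.3%, 176 calls) and Spanish 3 read 75.0% (65.5 to 82.6%, 96 calls). The other 3 libraries had 0 calls there, so the recomputed Creole value is 1 animal. It lies below the authors' Creole mean of 15%, and why the 2 values differ was not tested. In Spanish 1 each of the 8 cytosines was at 0 or at 100%, with 22 calls at each, 3 of them at 0 and 5 at 100%, and in Spanish 3, with 12 calls at each, 2 were at 0 and 6 at 100%. The Wilson bounds treat each call as an independent draw and leave out differences between animals. In Spanish 1 and Spanish 3 all calls at a cytosine agreed, so the bounds are too narrow there. This region was selected as different on these same libraries.

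The rest of the island was covered at other cytosines. Below the region, from 27134244 to 27134435, Spanish 1 read 82.3%, Spanish 2 16.7% and Spanish 3 0.0%, and Creole 1 read 60.5% and Creole 2 34.8%. There the 2 Creole libraries lay between Spanish animals. Creole 3 had 12 calls in that part, at 33.3%. Above the region, from 27134526 to 27135908, the calls are those of the window at 27135001 already given, where no cytosine was covered in both groups, so the order of the groups cannot be compared between the region and that stretch. Over the whole island Creole 1, 2 and 3 read 46.7%, 48.8% and 33.3%, and Spanish 1, 2 and 3 read 70.7%, 13.6% and 14.3%. The Spanish animals spanned all Creole values.

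Groups that did not overlap and whose means lay at least 25 points apart were found in 10 interval windows, 6 higher in Creole (4.35%, beside 3.0% of all windows) and 4 higher in Spanish animals (2.90%, beside 3.14%). Both shares were near those of all chromosomes. Among the 40 windows with all 6 libraries there were 0 in either direction, beside 1.62% and 1.11% of such windows on all chromosomes.

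Higher in Creole, beside the window at 27135001, were the following. At 27533001 to 27534000, Creole 1 read 58.0% and Creole 3 100%, Spanish 2 16.8% and Spanish 3 0.0% (difference 70.6 points, SE 22.6). At 28090001 to 28091000, Creole animals read 21.2%, 60.2% and 19.5%, and Spanish 1 and 2 read 0.0% and 7.88% (29.7 points, SE 13.9). At 28647001 to 28648000, Creole 1 and 2 read 41.3% and 74.9%, and Spanish 1 and 2 read 5.26% and 33.3% (38.8 points, SE 21.9). At 28090001, Creole 2 stood apart from Creole 1 and Creole 3. At 28802001 to 28803000, Creole animals read 89.8%, 100% and 100%, and Spanish 2 and 3 read 87.6% and 48.9% (28.4 points, SE 19.7). On the cytosines covered in every measuring library, that difference was 4.05 points. The sixth window, at 27986001 to 27987000, read 82.2% and 100% in Creole 1 and 2 and 76.2%, 39.5% and 80.1% in Spanish animals.

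Higher in Spanish animals, beside the window at 27807001, were 3 windows. At 28200001 to 28201000, Creole 1 and 2 read 50% and 38.1%, and Spanish animals 76.5%, 83.3% and 66.7% (difference -31.5 points, SE 7.67, unadjusted p = 0.0566, adjusted p = 1.0, edgeR's quasi-likelihood test). It kept this gap on cytosines covered in every measuring library, at -33.7 points. Calls were few, 18 and 84 in Creole 1 and 2 and 162, 72 and 48 in Spanish 1, 2 and 3. Creole 3 did not measure this window, and with a call minimum of 5 the difference was -26.1 points. At 29745001 to 29746000, Creole 1 and 2 read 67.7% and 38.5%, and Spanish 1 and 3 read 90.2% and 100%. At 25196001 to 25197000, Creole 1 and 3 read 54.5% and 60.0%, and Spanish animals 100%, 78.9% and 69.7%. Of the 10 windows, 2 could be measured on cytosines covered in every measuring library, those at 28200001 and 28802001.

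**Figure D5:**
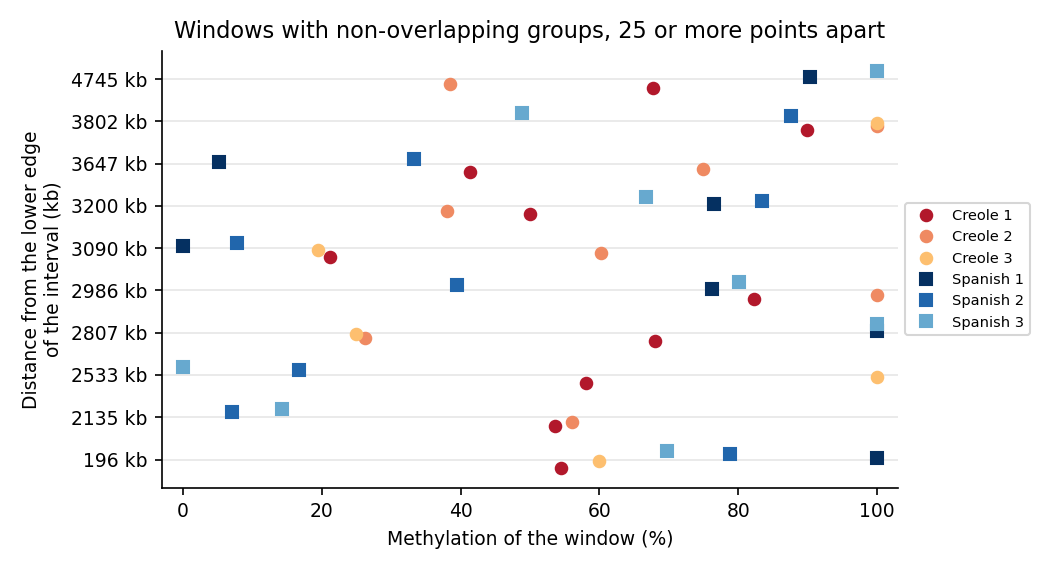
Methylation in percent of each measuring library (circles for Creole, squares for Spanish) is plotted for the 10 interval windows whose groups did not overlap and lay at least 25 points apart, labelled by their distance in kb from the lower edge of the interval. No row holds all 6 libraries, and in the window at 27807001 both measured Spanish animals sit at 100%.

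Among the other windows with the smallest p, several compared animals at or near 0. At 25030001 to 25031000, Creole 1 and 3 read 0.504% and 0.543%, and Spanish 1 and 2 read 0.0% each. At 27451001 to 27452000, Creole animals read 0.507%, 2.75% and 0.0% and Spanish 2 and 3 read 0.0%. At 28676001 to 28677000, Creole animals read 1.70%, 0.0% and 0.0% and Spanish animals 14.3%, 3.72% and 50% (difference -22.1 points, SE 14, unadjusted p = 0.0562, adjusted p = 1.0 by edgeR's quasi-likelihood test). The groups did not overlap there, but Spanish 2 lay close to Creole 1. At 27689001 to 27690000, with 129 covered cytosines, Creole animals read 19.4%, 5.72% and 0.0% and Spanish animals 53.2%, 21.1% and 17.4%, and Spanish 3 lay below Creole 1. At 27057001 to 27058000 the Creole mean was 25.4% and the Spanish mean 56.5%, and the groups overlapped. Also among the smallest p were the windows at 28745001 and 28775001, whose values are given above. They differed by -21.4 points (SE 11.4) and -30.2 points (SE 17.0). Their unadjusted p was 0.172 and 0.0682 by edgeR's quasi-likelihood test, and neither passed after adjustment. The 5 windows of smallest p that are not described singly differed by 4.40 points or less.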

How the data were processed

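Blood DNA of 6 cattle was profiled by reduced representation bisulfite sequencing. The submitters' processing notes name Trim Galore, Bismark, methylKit and UMD3.1. Their roles, versions and settings, and how PCR duplicates were handled, are not stated in the sources. Ends left by MspI were filled in, per the labels' protocols. The deposited files give the count of methylated and of unmethylated calls at each cytosine, with strands apart. The deposited percent column was recomputed from these counts. The authors' deposited table of regions gives group means as a fraction (printed as percent) and a score that was not used. Unmapped columns of single samples numbered 0.

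Groups follow the breed labels, and replicate numbers follow sample order and pair no animals. Interval levels weight each cytosine with at least 10 calls equally. Window levels sum calls over all covered cytosines, and a library that did not reach 3 cytosines and 10 calls was left out of that window. Windows were tested with edgeR 4.0.16 (quasi-likelihood, a term for each library, no dispersion trend) in R 4.3.3 and adjusted by Benjamini-Hochberg over 60386 windows; alternatives used the likelihood ratio test, limma 3.58.1 with 2 added to each count, pooled reads, other windows, minimums and cytosines, and each library left out. Single values were compared by exact permutation tests in Python 3.11.15 with numpy 2.4.6, pandas 2.3.3, scipy 1.17.1 and matplotlib 3.10.9.

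Windows named are those past the threshold or, with fewer than 10, the 10 of smallest p in each direction, and, of windows measured in all 6 libraries, the 3 lowest, 3 highest, 3 nearest 50% and 5 of largest SD; not each of these is given in the text. The windows at 25196001 and 27986001, and single cytosines, lie outside this rule and were chosen after their values were seen. The gene lists of that rule (MHC classes, antigen processing, butyrophilins, TRIM, olfactory receptor, histone and zinc finger genes) matched 0 names, since the only deposited gene in the interval is an identifier. The interval and all lists were chosen with earlier results of these data known. No sequence of UMD3.1 was used.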

Additional observations from a re-analysis of the deposited data

How the results depend on the processing

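No paired analysis was possible because the labels give the groups no shared replicate numbers. Under 18 other settings, edgeR's quasi-likelihood test called 0 interval windows, of 34 to 149 tested, and 0 windows over all chromosomes, so the 0 is not particular to the interval. At most 5 interval windows had an unadjusted p under 0.05 (3.36%, beside 4.15% of all windows in that setting). By the likelihood ratio test 1 interval window passed (2.07% of all windows), and 85 did with pooled reads (66.1% of all windows). With each library left out in turn the count was 0 throughout (lowest 0, highest 0). Of 30 windows chosen by rule, 4 could be measured on cytosines covered in every measuring library, so most window comparisons rest partly on different cytosines in each animal.

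The interval stayed below the rest of chromosome 23 under every setting that kept that comparison. Leaving out 1 library gave -20.0 to -17.6 points for the level, 17.9 to 20.6 for the share under 20%, -1.02 to -0.27 for the intermediate share, -19.6 to -17.0 for the share over 80% and -0.19 to -0.12 for the log2 density, where 5 libraries cannot give a p below 0.0625. The level passed 0.05 after adjustment with strands summed (-19.3 points, adjusted p = 0.0391), on cytosines with at least 10 calls in all 6 libraries (-53.2, from 13 interval cytosines at 2 places) and with windows weighted equally (-19.9, adjusted p = 0.031 for both). So did the share under 20% (20.2, 60.9 and 24.0 in that order), the intermediate share (-1.81, -14.1 and -9.01) and the share over 80% (-18.4, -46.8 and -15.0). The unadjusted p of the level was 0.031 in all of these settings, as in the report, so it passed only through the other measures adjusted with it: with strands summed the intermediate share also reached 0.031, and the other settings had no density measure, leaving 4 measures in place of 5. With other comparison stretches the level difference was -13.4 points against the 5 Mb below, and its direction turned against those above (11.5) and against both flanks (1.64). Within classes of covered CpG density it was -6.35, -17.2, -28.3 and -13.5 points. The single flanks and the density classes were added after the data were seen.

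The Creole minus Spanish difference in the interval level turned to 0.055 points on cytosines shared by all 6 libraries, and ranged from -2.55 to 1.70 with a library left out, turning positive without Creole 3. The difference in the gap to the rest of the chromosome ranged from -6.18 to -0.34 points with a library left out, with -0.34 without Creole 3. At a read minimum of 20 that difference was -5.44 points (exact permutation p = 0.1, the smallest possible). Depth limits single windows: at 27807001, Creole 3 rests on 12 calls and Spanish 3 on 27, beside 1107 in Creole 2.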
